A study of Microtus ochrogaster with 40 samples.

Results

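Sst, Npy and Nos1 encode the peptides somatostatin and neuropeptide Y and the neuronal nitric oxide synthase. They were chosen by name, and each was found once among the 19130 genes listed for every library, so the results below concern 3 genes (Sst, ENSMOCG00000012687; Npy, ENSMOCG00000011513; Nos1, ENSMOCG00000000970). The libraries were made from accumbens nuclei of 40 prairie voles (Microtus ochrogaster), with 1 animal per library. Each vole had lived for 16 days with an unfamiliar partner, which was an opposite-sex mate or a same-sex peer. There were 11 females and 11 males paired with a mate, and 8 females and 10 males paired with a peer. Genotype, age and the identity of the partners are not given in the sources used here, so animals housed together may not be independent, and the p-values measure the spread between these samples. All groups shared the species, the dissection and the nuclear preparation, and none of the voles was housed alone.

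Somatostatin is released from dense-core vesicles and acts through inhibitory G-protein-coupled receptors, and it is widely used as a marker of a class of GABA interneurons. Neuropeptide Y acts through a family of Gi-coupled receptors, and Nos1 makes nitric oxide, which diffuses to neighbouring cells and stimulates soluble guanylyl cyclase. In the rodent striatum, of which the accumbens is the ventral part, somatostatin, neuropeptide Y and neuronal nitric oxide synthase are classically found together in one rare type of interneuron with low-threshold spikes, while neurogliaform interneurons carry neuropeptide Y without somatostatin.

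After filtering, 178387 nuclei were kept. Libraries held between 1767 and 7666 kept nuclei (median 4549), and their totals ran from 2917087 UMIs (unique molecular identifiers, each standing for 1 captured RNA molecule) in male peer 1 to 13142398 in female mate 4. Of 158466 barcode sequences among the kept nuclei, 18429 occurred in more than 1 library, and the largest number that any 2 libraries shared was 75. Male mate 2 stood apart because it alone held barcodes under 500 UMIs, 6375 in all, which were left out. Animals are named by sex, pairing type and a number that only follows the order of deposit.

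Expression of all 3 genes was concentrated in a single class of nuclei. Nuclei were clustered without the 3 genes and named from marker lists, and 1 cluster of 7703 nuclei met the rule for the somatostatin-type interneuron class. Its leading genes included Crhbp, Chodl, Lhx6, Kcnc2 and Elfn1 as well as the 3 genes themselves. The class held 88.8% of all Sst UMIs, 83.2% of all Npy UMIs and 65.2% of all Nos1 UMIs. Not every nucleus of the class carried them: 51.4% had at least 1 UMI of Sst, 36.4% of Npy and 22.7% of Nos1. Across the 40 animals, the Sst level in this class ran from 2160 CPM (UMIs of the gene per 1000000 UMIs of all genes) through a median of 5484 to 12929. For Npy the lowest, median and highest animals were at 829.5, 2616 and 7826 CPM, and for Nos1 they were at 227, 557 and 1051 CPM. In 40 of 40 animals the class had the highest level of each gene among 11 named classes, where the animal had at least 20 nuclei. These were the classes that met the rule for tests between groups. Unnamed clusters, cholinergic interneurons and differentiating oligodendrocytes were not part of this count. These levels describe the class and carry no test, since classes and levels come from the same nuclei.

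**Figure D1:**
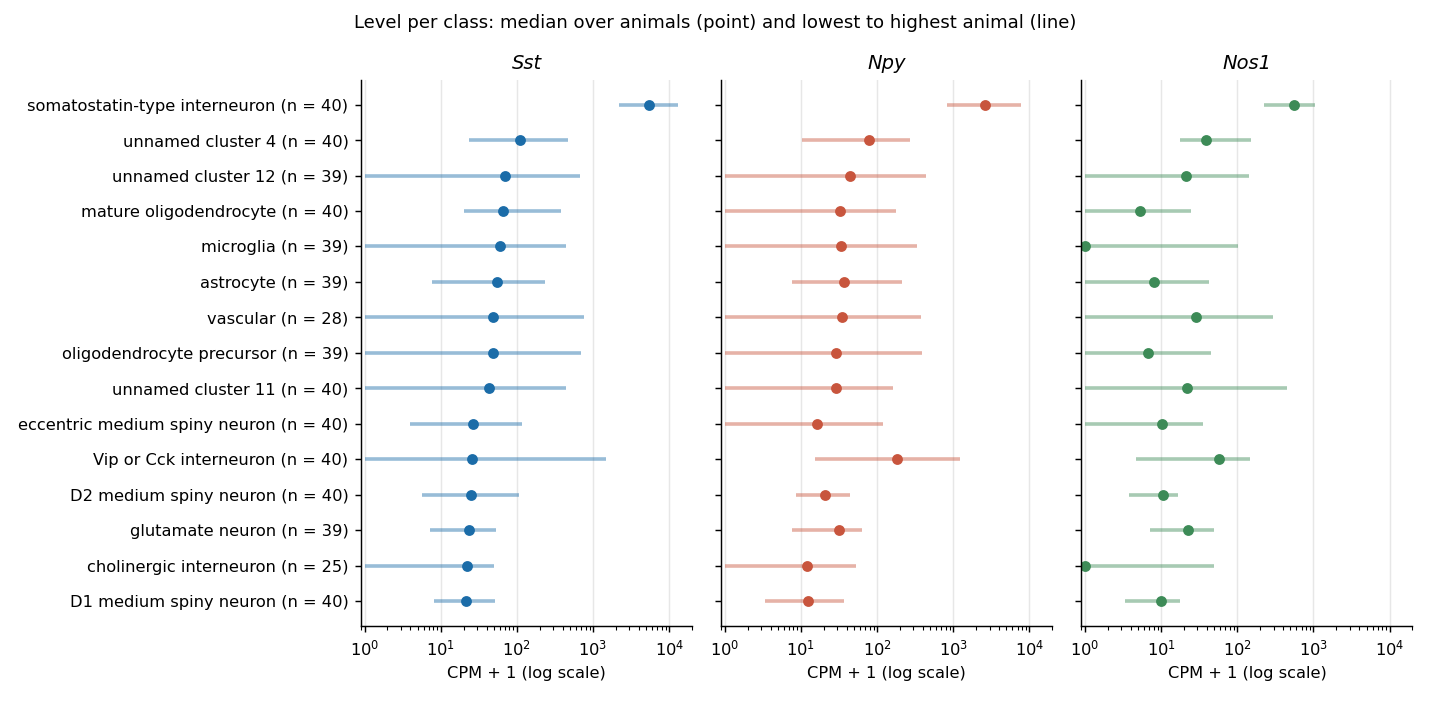
Level of Sst, Npy and Nos1 in each class of nuclei, on a logarithmic axis of CPM + 1; points are medians over animals with at least 20 nuclei of the class and lines run from the lowest to the highest animal. For each gene the median of the somatostatin-type interneuron class lies to the right of those of all other classes, with medians of 5484, 2616 and 557 CPM.

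Next in order for Npy was the class with Vip or Cck markers, interneurons led here by Vip, Crabp1, Kit and Trh (3780 nuclei). Its Npy level was 14.5 CPM in the lowest animal, 181 CPM in the median animal and 1219 CPM in the highest. This range overlapped that of the somatostatin-type class only through its highest animal, male peer 4. The same class held 3.33% of all Npy UMIs, and 14.2% of its nuclei had at least 1 UMI of the gene. Its Nos1 level (lowest, median and highest animal 3.63, 57.4 and 148 CPM) did not overlap that of the somatostatin-type class. Sst in the class was at 24.4 CPM in the median animal, from 0 to 1475 CPM.

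Because RNA released during nuclear isolation adds UMIs to every droplet, the non-neuronal nuclei (astrocytes, oligodendrocyte lineage, microglia and vascular cells), in which these neuronal genes are not typical, were read as the background. In those 41830 nuclei, 3.88% had a UMI of Sst, 2.54% of Npy and 0.66% of Nos1, at a median depth of 735 UMIs. Their levels over the 40 animals ran from 21.4 through 74.1 to 270 CPM for Sst. Npy was at 11.6, 39.9 and 173 CPM in the lowest, median and highest animal, and Nos1 at 0.882, 10.3 and 33.5 CPM. The lowest values of Npy (male mate 2) and Nos1 (male mate 8) stand for 1 UMI each. Within an animal, the Sst level of D1 medium spiny neurons exceeded that of the non-neuronal nuclei in 0 of 40 animals, that of D2 medium spiny neurons in 1 and that of Vip or Cck interneurons in 5. After each nucleus was thinned to 1000 UMIs, which left out shallower ones, the share with Sst was 3.84% in non-neuronal nuclei, 1.98% in D1, 3.09% in D2, 2.14% in glutamate and 2.89% in Vip or Cck nuclei. By CPM in most animals and by thinned share, Sst in each of these classes as a whole was at or below this background. CPM also depends on depth, and 40.1% of the non-neuronal Sst UMIs lay in 64 nuclei with 5 or more. The comparison therefore cannot show that these classes had no Sst of their own. Without thinning, a UMI of Sst was found in 4.04% of D1, 5.36% of D2, 4.70% of glutamate and 5.00% of Vip or Cck nuclei. These shares were above the 3.88% of non-neuronal nuclei, whose median depth was lower, and the part of depth was not tested. A D2 cluster led by Cpne7 at doubled clustering resolution, singled out after its values were seen, had Sst in 7.74% of its thinned nuclei, above the 3.84% of thinned non-neuronal nuclei. Before thinning, Sst was found in 12.9% of its nuclei, against 3.44% to 3.99% in the other D2 clusters at that resolution. The level of the Cpne7-led cluster in the median animal, 55.5 CPM, was below the median of the shallower non-neuronal nuclei.

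Npy and Nos1 exceeded the background in other neurons too. Npy was above the non-neuronal level in 38 of 40 animals in the Vip or Cck class, where 10.1% of thinned nuclei had a UMI against 2.94% of thinned non-neuronal nuclei. A minority of the class carried most of this signal: at doubled clustering resolution, 24.0% of its nuclei fell in a Vip-led cluster with Npy in 27.5% and Nos1 in 13.0% of thinned nuclei. The 62.0% in an unnamed cluster led by Crabp1 and Trh had Npy in 3.36% and Nos1 in 1.19%. Nos1 was above it in 37 of 40 animals in that class and in 32 of 39 animals in glutamate neurons, a class of 20690 nuclei. The thinned shares with Nos1 were 4.49% in the Vip or Cck class, 2.15% in glutamate neurons and 0.891% in non-neuronal nuclei. In D1 (0.893%), D2 (0.857%) and eccentric medium spiny neurons (0.765%) they were close to or below the thinned non-neuronal share. Before thinning, Nos1 was found in 2.04% of D1, 1.96% of D2 and 1.505% of eccentric nuclei, above the 0.66% of the shallower non-neuronal nuclei. Vascular nuclei held 113 of the 378 non-neuronal Nos1 UMIs. Their unthinned share with Nos1 was 4.48%, against 0.447% in mature oligodendrocytes and 0.57% in astrocytes. The parts of depth and of vascular nuclei in these differences were not tested. Npy in glutamate neurons was above the non-neuronal level in 10 of 39 animals. Without thinning, however, 5.62% of glutamate nuclei had a UMI of Npy, against 2.54% of the shallower non-neuronal nuclei. The glutamate class held 9.98% of all Nos1 UMIs (1473 UMIs), while the larger D1 and D2 classes held 644 and 660 UMIs. An unnamed cluster of 13913 shallow nuclei led by Cck and Stmn1 (median 818 UMIs) held a further 5.16%, and 3.53% of its thinned nuclei had a UMI of Nos1. An unnamed cluster led by Krt15, Prok2 and Drd3 (6526 nuclei) had a pooled Nos1 level of 67.0 CPM, but the median animal was at 20.8 CPM and the highest at 451.

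The proportions of the 3 genes among their summed UMIs also differed between classes. In the somatostatin-type class Nos1 made up 5.48% of these UMIs (95% exact binomial interval 5.38 to 5.59, which covers counting error only). In oligodendrocytes the share was 4.76% (3.70 to 6.01), and in astrocytes it was 7.21% (6.08 to 8.46). It was 20.7% (19.3 to 22.2) in D1 medium spiny neurons, 14.8% (13.8 to 15.9) in D2 medium spiny neurons and 30.5% (29.2 to 31.8) in glutamate neurons. Npy made up 66.3% (64.7 to 67.9) of the 3 genes' UMIs in Vip or Cck nuclei against 32.0% in the somatostatin-type class. In D1 and D2 medium spiny neurons, most Nos1 UMIs were single (90.5% in D1 and 90.0% in D2 lay in nuclei with 1 UMI) and no nucleus had more than 3. In eccentric medium spiny neurons this share was 73.6%, and the highest nucleus had 8. In non-neuronal nuclei Sst was less evenly spread: 40.1% of the Sst UMIs lay in 64 nuclei with 5 or more, the highest with 167.

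Over the 40 animals, the level of Npy in non-neuronal nuclei rose with its level in all other nuclei of the same library (Pearson r = 0.513, permutation p adjusted over 3 genes 0.00261; Spearman rho = 0.666, adjusted p = 3e-05). Without the 2 animals farthest from the median, r was 0.558, and within 4 blocks of 10 consecutive label numbers it ran from 0.242 to 0.666. Over nuclei of at least 1000 UMIs, r was 0.352 and no longer passed (adjusted permutation p = 0.0733), with r within blocks from 0.0915, while rho was 0.530 (adjusted p = 0.00111). For Sst, r was 0.207 (adjusted permutation p = 0.198) while rho was 0.500 (adjusted p = 0.00184; 0.319, adjusted p = 0.0681, over nuclei of at least 1000 UMIs), and within blocks r ran from 0.001 to 0.513. For Nos1, r was 0.326 (adjusted permutation p = 0.0592) and from 0.182 to 0.489 within blocks. The left-out shallow barcodes of male mate 2 had a median of 344 UMIs. Of their Sst UMIs 69%, and of their Npy UMIs 64.9%, lay in barcodes with 2 or more, up to 21 and 19 in 1 barcode. Whether these barcodes hold free RNA alone was not tested. They held Sst at 251 CPM, against 333 CPM in the kept nuclei and 220 CPM in the non-neuronal nuclei of that animal. Npy was at 140 CPM in these barcodes, 181 CPM in the kept nuclei and 11.6 CPM in the non-neuronal nuclei, and Nos1 at 40.5, 59.1 and 11.6 CPM. This animal had 117 non-neuronal nuclei, in which each value of 11.6 CPM stands for 1 UMI and that of Sst for 19.

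At doubled clustering resolution, the somatostatin-type class split into a small cluster rich in all 3 genes and larger ones with less Npy and little Nos1. The small cluster held 1111 nuclei, was led by Npy, Nos1, Chodl, Sst, Crhbp and Otc, and is called here the triple-gene cluster. It made up between 0.216% (female mate 1) and 1.01% (male mate 9) of an animal's nuclei, with a median of 0.565%. It held 45% of all Sst UMIs, 57.8% of all Npy UMIs and 55.5% of all Nos1 UMIs. In the 28 animals with at least 20 nuclei of it, Sst was at 11106, 20900 and 33725 CPM in the lowest, median and highest animal. Npy was at 7055, 14759 and 24839 CPM and Nos1 at 2438, 3234 and 5308 CPM. A nucleus of the cluster carried a median of 37 Sst, 23 Npy and 6 Nos1 UMIs. Of the 8 markers on the somatostatin-type list, Chodl (701 CPM), Lhx6 (501 CPM), Tacr1 (187 CPM), Sox6 (218 CPM), Grin3a (464 CPM) and Crhbp (865 CPM) were above their levels in the whole class. Elfn1 (21.6 against 191 CPM) and Satb1 (30.0 against 77.3 CPM) were below them, and Pvalb was at 1.54 CPM.

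Of the other clusters that came from the class, the larger one (4737 nuclei, led by Grik1, Kcnc2 and Elfn1) is called here the Grik1-led cluster. The naming rule gave it the name parvalbumin-type interneuron, with 5 of 7 markers raised. Its 10 leading genes held 2 markers of the parvalbumin-type list (Kcnc2 and Pvalb) and 2 of the somatostatin-type list (Elfn1 and Crhbp), so that name is not used here. Pvalb was at 108 CPM there and Chodl at 2.97 CPM. Its pooled levels were 3020 CPM for Sst, 813 CPM for Npy and 61.1 CPM for Nos1. Another, of 2692 shallow nuclei with Pvalb among its leading genes (median 751 UMIs), stayed unnamed, with Sst at 4393, Npy at 2250 and Nos1 at 240 CPM. Of the nuclei of the class, 60.7% went to the Grik1-led cluster, 24.5% to the unnamed one and 14.4% to the triple-gene cluster. The name somatostatin-type therefore covers more than 1 kind of nucleus at the coarser resolution, and its levels mix them.

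Nearly every nucleus of the triple-gene cluster carried the 3 genes together. All 3 were detected, with at least 1 UMI each, in 1036 of its 1111 nuclei (93.2%), and none of them in 8. In the Grik1-led cluster all 3 were detected in 129 nuclei (2.72%), Sst with Npy in 834 (17.6%), Sst alone in 957 (20.2%) and Nos1 alone in 247 (5.21%). The pattern differed again in the Vip-led cluster (911 nuclei). There Npy with Nos1 occurred in 137 nuclei (15.0%), Npy alone in 169 (18.6%), Nos1 alone in 75 (8.23%) and all 3 in 9. All 5 markers of the neurogliaform list were higher in that cluster than in the triple-gene, Grik1-led and shallow Pvalb-led clusters: Lamp5 (612 CPM), Kit (1150 CPM), Sv2c (668 CPM), Reln (497 CPM) and Ndnf (22.7 CPM). Non-neuronal nuclei lacked all 3 genes in 39146 of 41830 cases (93.6%) and held all 3 in 30.

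**Figure D2:**
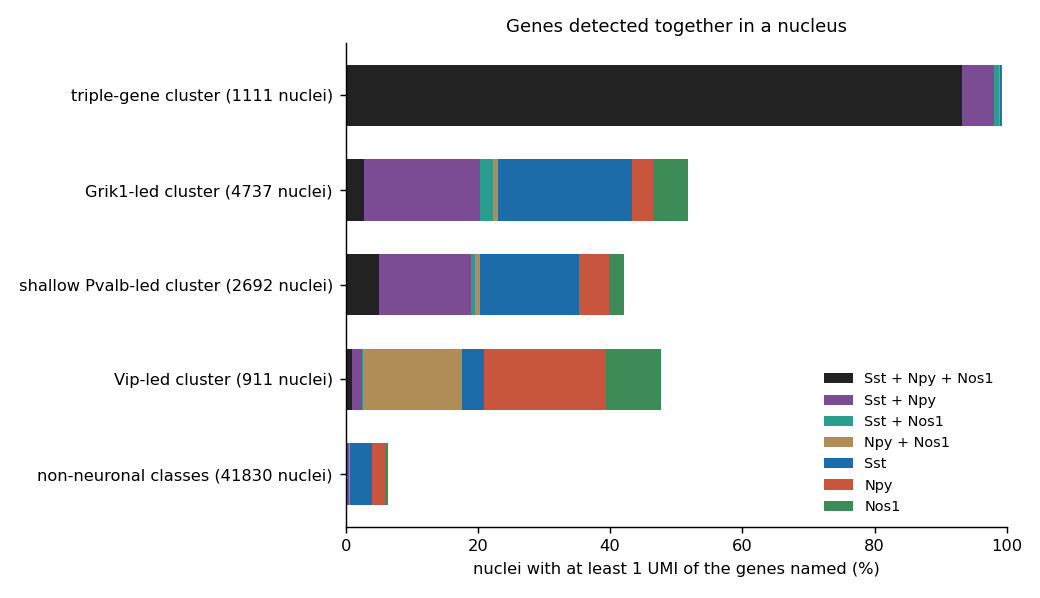
Share of nuclei, in percent, by which of Sst, Npy and Nos1 had at least 1 UMI, as stacked bars for clusters at doubled resolution and for non-neuronal classes. All 3 genes were found in 93.2% of the triple-gene cluster and in 2.72% of the Grik1-led cluster, and none in 93.6% of the non-neuronal nuclei.

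With at least 2 UMIs required, which removes most single background UMIs, detection was asymmetric. In the somatostatin-type class, 63.4% of 3499 nuclei with Sst also had Npy, whereas 94.4% of 2349 nuclei with Npy also had Sst. The share of Sst nuclei with Npy was 44.9% in the lowest animal, 64.1% in the median animal and 83.3% in the highest. For Npy nuclei with Sst these values were 87.0%, 95% and 100%, so the ranges did not overlap. Of 1200 nuclei with Nos1, 92.8% had Sst and 91.3% had Npy, while 31.8% of Sst nuclei and 46.7% of Npy nuclei had Nos1. The last 2 shares depended on the cluster: of Sst nuclei, 87.0% had Nos1 in the triple-gene cluster (1098 nuclei) and 3.58% in the Grik1-led cluster (1704 nuclei). In the Vip or Cck class, 3.54% of 311 Npy nuclei had Sst and 18.0% had Nos1, and 65.1% of 86 Nos1 nuclei had Npy. Over all kept nuclei, 66.4% of 1778 nuclei with Nos1 had Sst and 68.2% had Npy.

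Within clusters, thinned counts of Sst and Npy moved together over nuclei (Pearson r = 0.600 over 1047 triple-gene nuclei and 0.610 over 4646 nuclei of the Grik1-led cluster). In the triple-gene cluster, r was -0.22 between Sst and Nos1 and 0.0247 between Npy and Nos1. These are descriptions over nuclei that share libraries and a fixed total, in which 1 abundant gene leaves fewer UMIs for another.

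Nuclei with very many UMIs of these genes were seldom outside the somatostatin-type class. Of 2489 nuclei with at least 10 Sst UMIs, 94.4% were in it, as were 91.3% of 1467 nuclei with at least 10 Npy UMIs. A further 3.68% of the latter, 54 nuclei, were in the Vip or Cck class. The exceptions included single nuclei that set an animal's value. One Vip or Cck nucleus of male peer 4 held 324 Sst and 247 Npy UMIs in a total of 22743, out of 679 Sst UMIs in the whole class. One vascular nucleus of female peer 2 (33590 UMIs) held 167 Sst and 66 Npy UMIs, and an oligodendrocyte nucleus of male peer 7 (1797 UMIs) held 109 and 51. The part of mixed droplets in these nuclei was not tested.

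To ask what distinguishes nuclei with both peptides from nuclei with Sst alone, interneuron nuclei with at least 2 UMIs of each peptide (2228 nuclei) were compared with those having at least 2 of Sst and 0 of Npy (1060 nuclei). Counts were summed per animal and the animal was a block. Nos1, which played no part in choosing the nuclei, had the lowest p of the 2910 genes tested. In the nuclei with both peptides it was at 629 CPM in the lowest animal, 1625 in the median and 2982 in the highest. In the Sst-only nuclei it was at 0, 37.4 and 463 CPM. The ranges did not overlap, and Nos1 was higher with both peptides in 40 of 40 animals (1639 ± 537 against 58.2 ± 86.7 CPM, mean ± SD, n = 40; log2 fold change 5.03, SE 0.12, edgeR quasi-likelihood adjusted p = 2.68e-53). The log2 fold change was between 4.31 and 5.30 under all the alternatives tried. Median depths were 2276 UMIs with both and 2354.5 with Sst only. Of the nuclei with both peptides, 1080 belonged to the triple-gene cluster, 772 to the Grik1-led cluster and 387 to the unnamed cluster led by Pvalb. These were counted over all kept nuclei, before the restriction to interneuron classes. The triple-gene cluster had 1111 nuclei in all, so few of them could be in the Sst-only pool. The comparison therefore also sets that cluster against the others. Over thinned nuclei, r between Npy and Nos1 was 0.0247 in the triple-gene cluster and 0.148 in the Grik1-led cluster. Whether Nos1 or other genes differ between the pools inside a cluster was not tested.

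**Figure D3:**
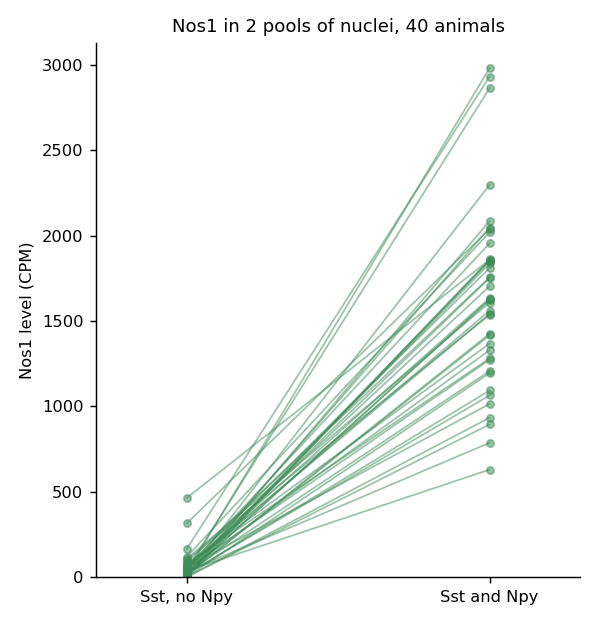
Nos1 level in CPM in interneuron nuclei with Sst and Npy and in nuclei with Sst only, with 1 line per animal joining the 2 pools. In all 40 animals the line falls from the pool with both peptides (629 to 2982 CPM) to the Sst-only pool (0 to 463 CPM).

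Nos1 was accompanied by other genes. Of the 2910 genes, 23.7% were called, and 11.1% were higher in nuclei with both peptides and 12.7% were lower. Besides Nos1, the genes with the lowest p among those that rose were Chodl, a membrane lectin (324 against 5.31 CPM), Rgma, an axon guidance molecule (416 against 49.5 CPM), Ptn, the growth factor pleiotrophin (416 against 77.0 CPM), and Crhbp, which binds corticotropin-releasing hormone (760 against 165 CPM). The insulin-like growth factor binding protein gene Igfbp5 (258 against 34.5 CPM), the protocadherin Pcdh18 (304 against 40.3 CPM) and the syndecan Sdc2 (353 against 88.3 CPM) followed. Their log2 fold changes lay between 2.01 for Sdc2 and 5.72 for Chodl, and each was higher in 40 of 40 animals. Those that fell included the GABA-A receptor subunit Gabrb2 (158 against 419 CPM, log2 fold change -1.34). The potassium channel Kcnc2 (257 against 835 CPM, -1.66) and the neuregulin receptor Erbb4 (97.9 against 386 CPM, -1.95) fell too, as did Adcy8, Lgi2, Spon1 and Tac2.

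Genes of the 3 pathways were read from the same table. The neuropeptide Y receptor Npy2r, known as a presynaptic autoreceptor and the 1 such receptor tested, was higher with both peptides in 40 of 40 animals (160 ± 52.6 against 16.0 ± 17.9 CPM, log2 fold change 3.24, edgeR adjusted p = 2.01e-28). Of 4 nitric oxide targets and partners tested, 2 were higher and 0 lower (median log2 fold change 0.17, against -0.0056 over all genes tested). These were Prkg1, the cGMP-dependent kinase (141 against 47.3 CPM, log2 fold change 1.56), and Gucy1a1, a guanylyl cyclase subunit (133 against 89.6 CPM, 0.49), while Gucy1b1 (-0.14) and Dlg4 (-0.17) did not pass. Of 9 genes of peptide processing and dense-core vesicles, 5 were higher and 1 was lower (median 0.16), where 11.1% and 12.7% of all genes were. After thinning, 7 of these genes could be tested, of which 2 were higher and 1 lower (median 0.041), and no tested gene came from the other lists. Vgf, the precursor of several secreted peptides (1550 against 1140 CPM, 0.47), Pam, which amidates peptides (1307 against 979.5 CPM, 0.44), and Scg3 (0.39) were among those that rose. Chga, a granin of the vesicle core, was the one that fell (435 against 554 CPM, -0.31).

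Receptors and targets were highest in classes other than the peptide-rich one, apart from Npy2r and Vgf. By pooled level, the somatostatin receptor Sstr1 was highest in oligodendrocyte precursors (581 CPM, against 55.4 CPM in the somatostatin-type class), Sstr2 and Sstr3 in glutamate neurons (113 and 29.8 CPM) and Sstr4 in D1 medium spiny neurons (78.1 CPM). The neuropeptide Y receptor Npy1r was highest in Vip or Cck interneurons (45.6 CPM). Npy2r was highest in the somatostatin-type class (55.8 CPM), followed by Vip or Cck interneurons (27.6 CPM). The guanylyl cyclase subunits Gucy1a1 and Gucy1b1 were highest in D2 medium spiny neurons (820 and 513 CPM), and the endothelial synthase Nos3 in vascular nuclei (206 CPM). The gene Vgf was highest in the somatostatin-type class (1130 CPM). The related peptide gene Pyy was at 0 UMIs in all nuclei.

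Genes with the level pattern most like that of the 3 were found by Pearson correlation of log2(CPM + 5) over 37 clusters of nuclei at doubled resolution, a description over clusters that share libraries. For Sst these were Npy (r = 0.880), Nos1 (0.838), Crhbp (0.838), Cbln4 (0.795) and Lhx6 (0.791). For Npy they were Sst, Crhbp (0.877), Nos1 (0.856), Cygb (0.827) and Kcnmb2 (0.821). For Nos1, Cbln4 (0.883) came first, ahead of Npy (0.856), Sst (0.838), Kcnk15 (0.834) and Nalf2 (0.790). Over the 23 coarser clusters, each of the 3 genes had the other two among its 5 most similar genes, with r = 0.943 between Sst and Npy.

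Levels summed over all nuclei of an animal were compared next between voles paired with a mate and voles paired with a peer. In such sums, fewer nuclei of a type and less RNA per nucleus cannot be told apart. Sst was at 139, 333 and 618 CPM in the lowest, median and highest of 22 voles with a mate, and at 244, 378 and 671 CPM in 18 voles with a peer. The groups overlapped over most of their range (348 ± 127 against 392 ± 120 CPM, mean ± SD), and the difference did not pass the test (mate minus peer, log2 fold change -0.17, SE 0.16, edgeR adjusted p = 0.794). The highest animal, female peer 8 at 671 CPM, lay well above the next female with a peer at 421 CPM. Without it the log2 fold change was -0.09, and the mean of voles with a peer was 376 ± 101 CPM (SD, n = 17).

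Npy was at 70.1, 181 and 323 CPM in the lowest, median and highest vole with a mate and at 145, 191 and 391 CPM with a peer. Again the groups overlapped, and female peer 8 was the highest animal (188 ± 77.5 against 217 ± 68.4 CPM; log2 fold change -0.20, SE 0.17, edgeR adjusted p = 0.776; -0.10 without female peer 8). Nos1 varied least between animals, at 29.8, 45.2 and 61.3 CPM with a mate and 34.0, 48.5 and 61.0 CPM with a peer. Its difference was -0.06 (SE 0.09, edgeR adjusted p = 0.865), and -0.09 without its highest animal, male mate 9. Across the whole table of 13697 genes, 0% were called for pairing type (0 genes by edgeR and 0 by DESeq2; 941, or 6.87%, and 994 with an unadjusted p under 0.05), so the 3 genes did not stand out by failing the test.

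**Figure D4:**
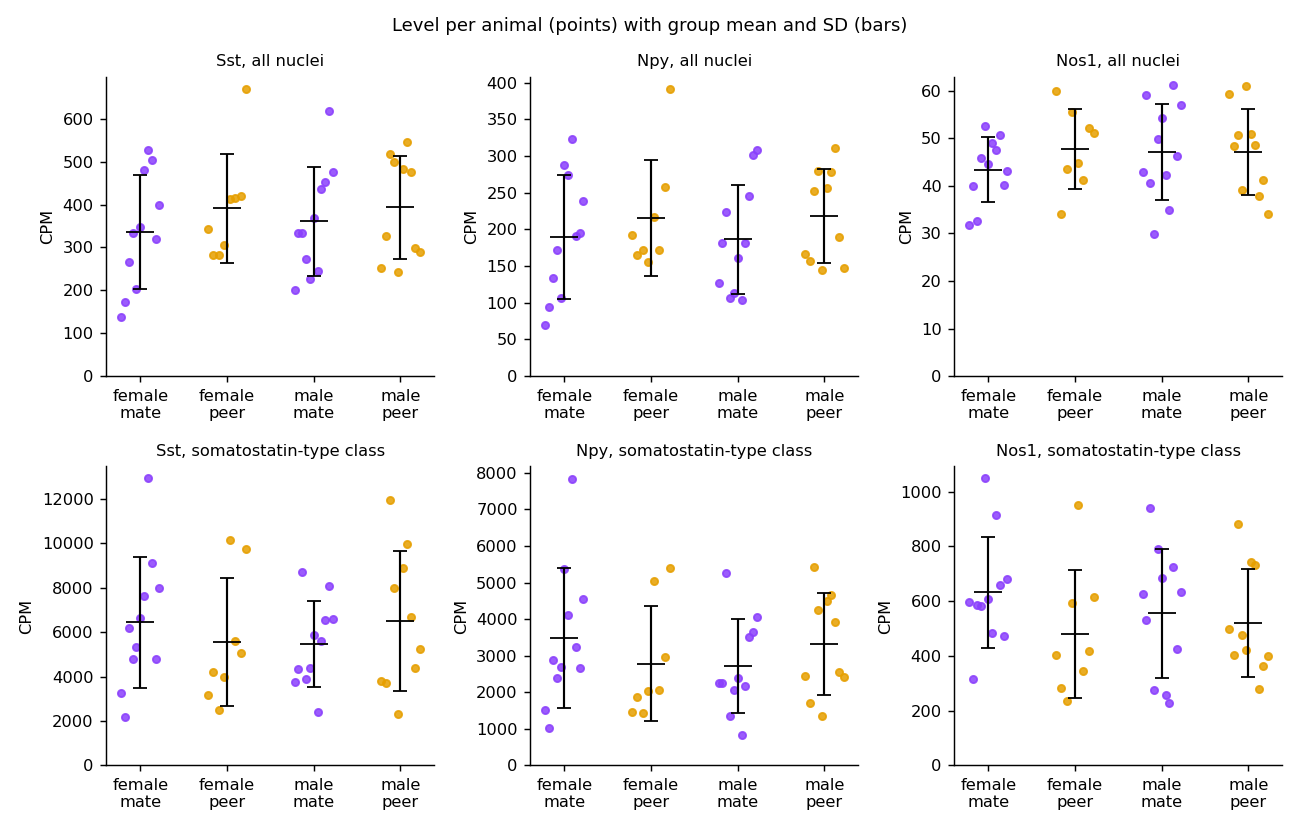
Level in CPM of Sst, Npy and Nos1 per animal, in all nuclei (top) and in the somatostatin-type class (bottom), for the 4 groups; points are animals (purple with a mate, orange with a peer) and bars are mean ± SD. The groups overlap in all 6 panels, and female peer 8 is the highest animal for Sst (671 CPM) and Npy (391 CPM) in all nuclei.

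Females and males did not differ detectably in any of the 3 genes. Sst was at 359 ± 130 CPM in 19 females and 376 ± 122 CPM in 21 males (female minus male, log2 fold change -0.06, SE 0.16, edgeR adjusted p = 0.936). Npy was at 200.4 ± 80.5 against 202 ± 69.8 CPM (0.0022, SE 0.17, adjusted p = 0.998), and Nos1 at 45.3 ± 7.63 against 47.1 ± 9.40 CPM (-0.05, SE 0.09, adjusted p = 0.881, all by edgeR). Over all genes, 0.0219% (3 genes) were called between the sexes, and 8.42% had an unadjusted p under 0.05. The interaction, which sets the effect of pairing type in females against that in males, was -0.08 (SE 0.32) for Sst, 0.06 (SE 0.35) for Npy and -0.12 (SE 0.18) for Nos1. None of these passed the test, and 0% of genes were called (0 by edgeR and 0 by DESeq2; 276, or 2.02%, and 296 with an unadjusted p under 0.05).

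Within the somatostatin-type class the groups overlapped as broadly. Sst was at 2160, 5745 and 12929 CPM in the lowest, median and highest vole with a mate and at 2308, 5161 and 11975 CPM with a peer (log2 fold change -0.03, SE 0.19). Npy was at 829.5, 2682 and 7826 CPM against 1344, 2505 and 5414 CPM (0.0097, SE 0.21). Nos1 was at 227, 603 and 1051 CPM against 236, 420 and 952 CPM (594 ± 218 against 502 ± 208 CPM; 0.23, SE 0.17, edgeR adjusted p = 0.951). Female mate 8 was the highest animal for both peptides and female mate 5 for Nos1, and without the highest animal the log2 fold changes were -0.10, -0.09 and 0.18.

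In 9 classes, 23 pairs of a member gene and a class could be tested for each of pairing type, sex and their interaction, and 0 of the 23 were called in any of them. Of 81146 pairs of any gene and a class, 0% were called for pairing type, 0.0234% for sex and 0% for the interaction. For pairing type edgeR and DESeq2 each called 0, with 4115 (5.07%) and 3795 pairs at an unadjusted p under 0.05, and for the interaction each called 0, with 2281 (2.81%) and 2065. Of the 23 pairs with a member, 1 had an unadjusted p under 0.05 for the interaction and 2 had one for pairing type. The first for pairing type was Npy in Vip or Cck interneurons, at 43.7, 169 and 443 CPM in the lowest, median and highest vole with a mate and 14.5, 214 and 1219 CPM with a peer. Its log2 fold change was -0.78 (SE 0.26, edgeR p = 0.00325, adjusted p = 0.951), and -0.57 without male peer 4, the animal with the single peptide-rich nucleus. The other was Sst in eccentric medium spiny neurons (10.1, 28.4 and 114 against 3.01, 24.4 and 37.8 CPM; 0.63, SE 0.22, edgeR p = 0.00726, adjusted p = 0.951). Its log2 fold change was 0.59 without the highest animal, male mate 2, and its level exceeded the non-neuronal one in 2 of 40 animals. Of the 23 pairs, 3 had an unadjusted p under 0.05 for sex, against 5% of all pairs, and none was called. They were Sst in Vip or Cck interneurons (log2 fold change -1.40, but 0.028 without male peer 4 and 0.11 with DESeq2), Npy in oligodendrocytes (-0.71, but 0.28 with doublet calls kept) and Sst in vascular nuclei. Vascular Sst was at 0, 47.6 and 761 CPM in the lowest, median and highest of 14 females and 0, 58.5 and 232 CPM in 14 males. Its log2 fold change was 1.32 (SE 0.52, edgeR p = 0.016, adjusted p = 0.975). It passed the threshold when no filter on low counts was applied (1.34, edgeR adjusted p = 0.0494) and under none of the other 7 alternatives (adjusted p from 0.949 to 1.00), and was 1.25 without the highest animal, female peer 6. Sst in Vip or Cck interneurons changed direction with male peer 4, from -0.56 with it to 0.85 without it, and did not pass the test (mean with a peer 107 ± 342 CPM with it and 26.7 ± 27.6 CPM without it).

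Pathway genes showed no called difference either. Over all nuclei, 28 of them were tested (4 somatostatin receptors, 2 neuropeptide Y receptors, 9 nitric oxide targets and partners, 1 other nitric oxide synthase and 12 genes of peptide processing), and 0 were called for pairing type, sex or the interaction.

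Each label opens with a number from 1 to 40, and levels of both peptides differed along these numbers. In consecutive blocks of 10 numbers, mean Sst over all nuclei was 263, 309, 449 and 451 CPM and mean Npy 143, 173, 226 and 262 CPM. Nos1 did not follow this order, at 43.1, 48.6, 48.2 and 45.2 CPM. What the numbers stand for is not given in the sources used here. Voles with a mate made up 8, 6, 4 and 4 of the 10 animals in these blocks. Within blocks, the mate minus peer difference in mean Sst was -32.9, 8.63, 51.2 and 2.69 CPM, and that in Npy was -23.0, 2.98, 14.9 and -2.01 CPM, so the direction over all animals did not hold in every block. With the blocks as a term in the fit, the pairing difference was 0.034 for Sst, 0.0032 for Npy and -0.03 for Nos1 (log2 fold changes, none called). In the somatostatin-type class the Sst differences were 890, 1913, 724 and 9.96 CPM, the Npy differences 295, 1212, 425 and 81.3 CPM and the Nos1 differences 105, 268, -5.98 and 85.1 CPM. With the blocks as a term, the log2 fold change of Sst there was 0.26 and was not called.

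**Figure D5:**
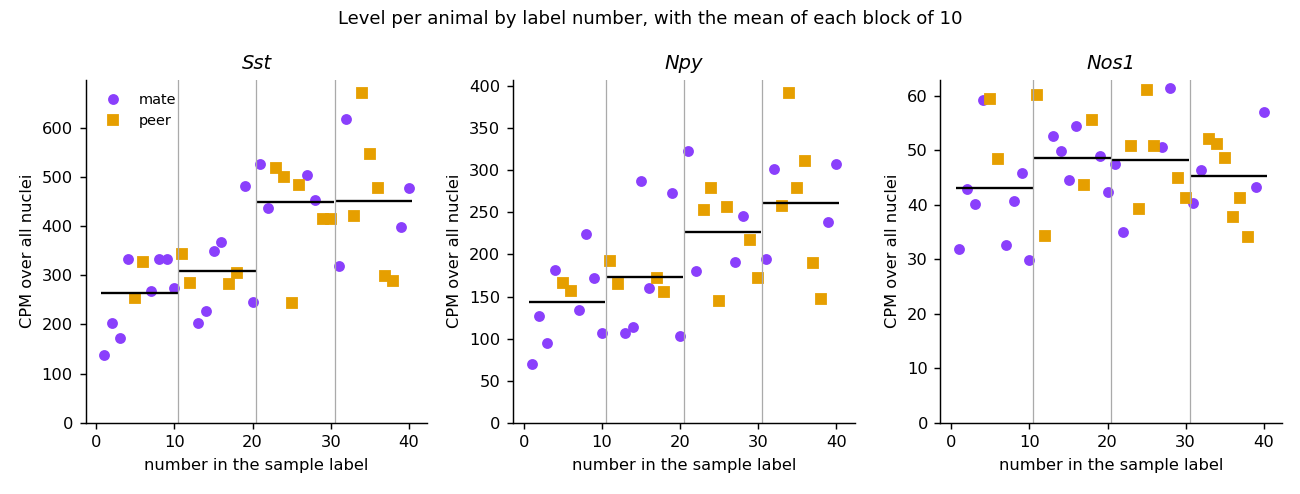
Level in CPM of Sst, Npy and Nos1 over all nuclei of each animal against the number that opens its label; circles are voles with a mate, squares voles with a peer, and horizontal lines are means of 10 animals. The block means of Sst go from 263 to 451 CPM and those of Npy from 143 to 262 CPM, while those of Nos1 stay between 43.1 and 48.6 CPM.

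The peptides varied together between animals. Across the 40 animals, the all-nuclei levels of Sst and Npy had Pearson r = 0.893 (Spearman rho = 0.886; permutation p adjusted over 12 relations 6e-05), 0.866 without the 2 animals farthest from the median and 0.747 to 0.922 within blocks. In the somatostatin-type class r was 0.926 (rho = 0.925), 0.906 without the 2 animals farthest from the median there and 0.880 to 0.95 within blocks. Sst and Nos1 had r = 0.222 over all nuclei (adjusted permutation p = 0.205) and 0.620 in the class (rho = 0.595, adjusted permutation p = 0.00015, within blocks 0.494 to 0.807). The class mixes clusters that differ in all 3 genes, and the part of their proportions in these class values was not tested. Over thinned nuclei of the triple-gene cluster, r between Sst and Nos1 was -0.22. The share of triple-gene nuclei had r = 0.555 with the all-nuclei level of Nos1 (rho = 0.579, adjusted permutation p = 0.00048, within blocks 0.312 to 0.818), 0.223 with that of Sst and 0.231 with that of Npy. The triple-gene cluster was picked as that with the highest pooled Nos1 level, and its nuclei are part of the all-nuclei sums. A positive r, above all with Nos1, was therefore partly built in, and its p gives no support for a link.

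Shares of nuclei did not separate the pairing types. Somatostatin-type nuclei made up 1.99%, 4.03% and 6.19% of the nuclei of the lowest, median and highest vole with a mate and 2.90%, 4.34% and 7.22% with a peer (4.01 ± 1.15 against 4.63 ± 1.16%; difference -0.61 percentage points, permutation p = 0.0967, adjusted over 18 comparisons 0.597). Within the class, nuclei with all 3 genes made up 19.2 ± 7.43% with a mate and 16.3 ± 6.77% with a peer (2.85 percentage points, permutation p = 0.219, adjusted 0.597). When the 3 genes helped build the clusters, the class of this name was a different and smaller set of nuclei. Only 31 animals then had at least 20 nuclei of it, against 40 before. The differences were 0.027 percentage points for that class and -1.32 for nuclei with all 3 genes within it (31 animals). They are not the same 2 shares measured again. Nos1 was detected in 26.5 ± 7.50% of the class in females and 22.0 ± 6.78% in males (4.09 percentage points when averaged over the pairing types, permutation p = 0.0738, adjusted 0.597). None of the 18 comparisons of a share between pairing types, between sexes or for their interaction passed.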

How the data were processed

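Nuclei from each vole's nucleus accumbens were captured with a 10X Genomics kit. The authors deposited whole-number UMI counts, 1 table of genes by barcodes per vole, made with Cell Ranger 3.1.0, per the file headers and the submitters' processing notes; genome build, annotation and barcode rule are not given in the sources used here, so no coordinates or sequences are printed.

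Barcodes under 500 UMIs (6375), those over 5% mitochondrial UMIs (2148) and simulated-doublet calls (7608, 4.09%, at 0.8% per 1000 barcodes) were left out. Counts were scaled to 10000 per nucleus, and 2000 variable genes without Sst, Npy and Nos1, 30 components and 15 neighbours gave Leiden clusters (leidenalg 0.10.2) at resolutions 1 and 2. A class needed 3 raised markers from 18 lists (115 of 123 genes found); rebuilt names may differ from the study's own. The members, the marker lists and the 6 pathway lists (33 genes found) were chosen with earlier results of these data known.

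UMI counts were summed per animal, or per animal and class with at least 20 nuclei and at least 6 animals per group, and tested with edgeR 4.0.16 (R 4.3.3; TMM, filterByExpr, quasi-likelihood, 1 mean per group) with Benjamini-Hochberg adjustment over all genes or pairs and a threshold of 0.05. CPM are the summed counts over all summed UMIs. DESeq2 1.42.0 was an alternative. Pools of nuclei needed 5 nuclei per animal. Shares and correlations over animals used two-sided permutation tests with 100000 resamples. Named genes were the 3 members, the 5 genes most like each, the 8 called genes of lowest p in each direction between pools, called pathway genes, and otherwise those of highest level. One gene that this rule names is not reported here. Scripts were tested on simulated data. Total kept UMIs per library set the precision.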

Additional observations from a re-analysis of the deposited data

Results flagged for a closer look

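In groups of 4 to 10 animals, a value was picked out where the gap between the highest or lowest animal and its neighbour was large for the range of the group (Dixon's 95% value). Of 74 combinations of a group with a gene in a set of nuclei or with a share of nuclei, 14 met this, all with a high animal. For normally distributed values, chance alone gives about 5% of groups. CPM from few UMIs need not be so distributed, and the same animals recur, so no excess over chance is read from this. The females and the males with a mate, 11 animals each, were looked at only in classes that 10 or fewer of them reached, so high animals with a peer were more likely to be found. Over all nuclei, female peer 8 was high for Sst (671 CPM, the next female with a peer at 421) and for Npy (391 CPM, next 258). In Vip or Cck interneurons, Sst was high in male peer 4 (1475 CPM, next 55.9) and in female peer 3 (114 CPM, next 55.6). In D2 medium spiny neurons, female peer 2 was high for Sst (57.1 CPM, next 32.5) and for Npy (43.0 CPM, next 22.7), and in D1 medium spiny neurons male peer 8 was high for Sst (40.0 CPM, next 24.6). In oligodendrocytes, male peer 7 was high for Sst (336 CPM, next 152) and for Npy (175 CPM, next 90.9). In astrocytes, Sst was high in female peer 1 (235 CPM, next 105) and Npy in male mate 3 (168 CPM, next 67.0). Vascular Sst was high in female mate 6 (461 CPM, next 58.2). Over all non-neuronal nuclei, Npy was high in female peer 2 (123 CPM, next 61.8) and Nos1 in male peer 3 (23.4 CPM, next 13.3).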

How the results depend on the processing

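All 45 median levels by class moved by less than 1 SD between animals when doublet calls were kept, and 0 members were called for pairing type or the interaction under any alternative. Small differences near 0 changed sign, and the cause was not tested. With the blocks of 10 label numbers as a term, the log2 pairing difference over all nuclei was 0.034 for Sst and 0.0032 for Npy, the sex difference of Sst 0.0014 and the interaction of Npy -0.0050. The sex difference of Npy was -0.0040 with no filter on low counts, -0.00026 without male mate 2 and -0.090 without female peer 8; without that animal the interaction of Sst was 0.075. In the somatostatin-type class, the pairing difference of Sst was 0.26 with the blocks, and that of Npy -0.014 with doublets kept and -0.087 without female mate 8. In Vip or Cck interneurons, Sst rested on male peer 4: without it the pairing, sex and interaction values were 0.85, 0.028 and -0.47, with DESeq2 0.76, 0.11 and -0.68, and with the blocks the pairing value was 0.022. The sex difference of Npy in oligodendrocytes was 0.28 with doublets kept. DESeq2 called 6 genes for sex over all nuclei, against 3 with edgeR. With no filter, 2 gene and class pairs were called for pairing type, 1 for the interaction, and 1 member for sex, vascular Sst (log2 difference 1.34). When the 3 genes helped build the clusters, the somatostatin-type class was a different and smaller set of nuclei. The pairing difference was then 0.027 percentage points for the share of that class and -1.32 for the share with all 3 genes within it (31 animals). Thinned pools gave 134 called genes of 462 tested (62 higher, 72 lower), with fewer genes tested. The free-RNA correlation of Npy was 0.352 over nuclei of at least 1000 UMIs and lost its call (adjusted p = 0.0733), as did the rank correlation of Sst (0.319, adjusted p = 0.0681). The alternatives without single animals in the pools, within blocks, within classes for sex and interaction, and the 12 correlations between members were chosen after seeing the data. The somatostatin-type and Vip or Cck classes could not be tested at doubled resolution, since too few animals had 20 nuclei in each group. No paired analysis was run, because the labels do not name partners. Each odd label number and the even number after it hold a female and a male with a mate, or same-sex voles with a peer. Whether such neighbours were partners is not given in the sources used here, and the tests treat all animals as independent.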

Other observations

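At doubled resolution, 3 further clusters were of note for these genes. A glutamate cluster of nuclei with Ndst4 among its leading genes (9319 nuclei) held 8.41% of all Nos1 UMIs, with Nos1 in 10.5% of its nuclei (3.51% after thinning, against 0.891% in non-neuronal nuclei) and at 34.1 CPM in the median animal. Another glutamate cluster had Npy at 12.4, 91.7 and 703 CPM in the lowest, median and highest animal, and Npy made up 63.5% of the UMIs of the 3 genes there. A D2 medium spiny neuron cluster led by Cpne7 had Sst in 12.9% of its nuclei, 7.74% after thinning, against 3.84% of thinned non-neuronal nuclei. Before thinning, the other D2 clusters had Sst in 3.44% to 3.99% of their nuclei. Levels in the Cpne7-led cluster ran from 0 through 55.5 to 383 CPM over 40 animals, a range that overlaps the non-neuronal one. These clusters were singled out after their values were seen.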
